A study of Mus musculus with 56 samples.

Results

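Gene expression over the day was examined in the livers of mice fed only at night. The samples were the 28 libraries of the nighttime-restricted feeding regimen (NRF), which were all the NRF columns of the gene table, out of 56 libraries in the series. The other 28 libraries came from daytime-restricted feeding (DRF). All were from female C57BL/6J mice aged 9 weeks, kept in 12 h of light and 12 h of dark, fed freely while they were entrained for 7 days, and then held on their regimen for 7 more. Times are zeitgeber times (ZT), which count hours from lights on, and 4 different animals gave livers at each of ZT0, 4, 8, 12, 16, 20 and 24, so no animal was followed over the day. ZT0 and ZT24 fall at the same clock phase. RNA was bulk liver RNA depleted of ribosomal RNA and sequenced from strand-specific libraries. The questions were which genes and functions cycled over 24 h under NRF, when they peaked and how large the cycles were.

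The liver clock is a transcription feedback loop. BMAL1, encoded by Arntl, pairs with CLOCK or NPAS2 and binds E-box DNA to switch on the Per and Cry repressor genes, the nuclear receptor genes Nr1d1 and Nr1d2 (REV-ERBs) and the PAR bZIP genes Dbp, Tef and Hlf. PER and CRY proteins then block their own activators. REV-ERBs repress, and ROR receptors activate, genes with RORE elements such as Arntl and Nfil3, while the PAR bZIP factors and NFIL3 compete at D-boxes. In liver, this loop and the daily cycle of feeding and fasting are both known to set rhythms of glucose, lipid, bile acid and drug metabolism.

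Levels are given as scaled counts, a depth-scaled measure recovered from the deposited values, in which 1 unit stood for 304 to 723 recovered counts per library. Gene length is not taken out of them, which makes them fit for setting libraries side by side but not one gene against another. Recovered counts summed to between 3.13e+08 and 7.04e+08 per library, and libraries of the same time correlated at 0.965 to 0.988 across 13799 genes. A gene was called rhythmic when a cosine with a period of 24 h, fitted by limma to log2(scaled count + 1) of the 28 libraries, had an adjusted p under 0.05 over all 25404 genes. Peak times are those of the fitted curve, with their standard error (SE). The peak-to-trough ratio is the fitted ratio of the highest to the lowest point of the curve, and because 1 was added to each value it understates the swing of genes with low counts. The times named as highest and lowest for a gene were picked by their means, so whether those groups overlapped is a description and the test is the cosine fit over all libraries. In whole liver, a lower value can mean fewer cells of a type or less RNA per cell, and these cannot be told apart. The 8 hepatocyte markers tested summed to 112290 to 172800 scaled counts over the libraries, so the labelled tissue showed its defining genes at every time.

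Under night feeding 9791 of 25404 genes were rhythmic (38.5%), and 3241 (12.8%) also had a peak-to-trough ratio of at least 1.5. Among the 8296 protein-coding genes with a mean of at least 5 scaled counts, 4801 were rhythmic (57.9%) and 1939 reached the ratio of 1.5 (23.4%). Most cycles were small. The median ratio of the rhythmic genes was 1.37, with quartiles of 1.23 and 1.59, while 960 genes reached 2, 132 reached 4 and 20 reached 10. Over all tested genes, rhythmic or not, the median ratio was 1.15, and over the 8296 protein-coding genes it was 1.29. The standard error of a peak time had a median of 0.796 h over rhythmic genes and of 0.569 h over those with a ratio of at least 1.5.

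Peak times fell into 2 crowded stretches of the day. The fullest 2-h bin was ZT6 to ZT8, in the middle of the light and fasting phase, with 1700 genes (17.4% of the rhythmic genes). The second was ZT18 to ZT20, in the middle of the dark and feeding phase, with 1073 genes (11%). The emptiest bin was ZT12 to ZT14, just after lights off and the start of feeding, with 479 genes (4.89%). In all, 4319 rhythmic genes peaked in the dark, a share of 44.1% with a 95% Wilson interval of 43.1 to 45.1% that covers counting over genes only. These features depended on the values used. Of the rhythmic protein-coding genes, 36.2% peaked between ZT4 and ZT10, but 20.9% with the values as deposited and 31.9% with median-of-ratios scaling. The dark share was 61.3% with the values as deposited and 49.3% with median-of-ratios scaling, whereas for the genes with a ratio of at least 1.5 it was 45.1%, 43.7% and 51.1%, respectively. The 45.1% and 43.7% describe mostly different genes, since only 908 of the 2838 genes with that ratio as deposited were among the 3241. The counts over gene lists that follow can be read beside the 38.5% and 12.8% of all genes and, since most listed genes code for proteins, beside the 57.9% and 23.4% of protein-coding genes with a mean of at least 5. Their median ratios stand beside 1.15 and 1.29.

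**Figure D1:**
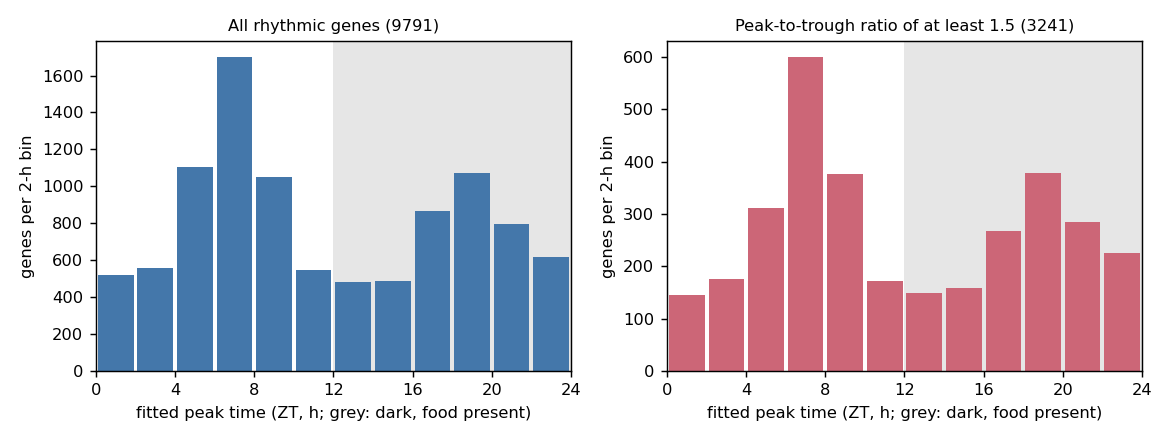
Number of rhythmic genes by fitted peak time in 2-h bins (x axis, ZT in hours; y axis, genes per bin), for all 9791 rhythmic genes on the left and for the 3241 with a peak-to-trough ratio of at least 1.5 on the right; grey marks the dark phase, when food was present. Both plots are highest at ZT6 to ZT8 (1700 and 600 genes), have a second rise at ZT18 to ZT20 (1073 and 378 genes) and are low at ZT12 to ZT14 (479 and 148 genes).

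Of the 19 clock genes examined, 18 were rhythmic and all 18 had a ratio of at least 1.5. Reference promoters, the 250 bases before and 50 bases after an annotated start site in RefSeq GRCm38.p6, were matched for 16 of the 19, and 5 of the 16 held the E-box CACGTG, the binding word of the BMAL1 complex. Among all protein-coding genes tested with a matched promoter, 11% held it. The stretches around those E-boxes are printed here because this word is the entry point of the loop, each 5′ to 3′ on its gene's strand in lower case with the motif in capitals. The Ciart stretch lies at chr3:95882229-95882384, minus strand, that of Per1 at chr11:69098743-69098828, plus strand, that of Cry1 at chr10:85185069-85185154, minus strand, that of Bhlhe41 at chr6:145865528-145865613, minus strand, and that of Tef at chr15:81802506-81802591, plus strand, one of 2 starts of that gene with an E-box before them. The Per1 and Tef stretches lie inside the annotated genes (chr11:69095217-69109960 and chr15:81802421-81826863), so they precede starts other than the first.
Ciart: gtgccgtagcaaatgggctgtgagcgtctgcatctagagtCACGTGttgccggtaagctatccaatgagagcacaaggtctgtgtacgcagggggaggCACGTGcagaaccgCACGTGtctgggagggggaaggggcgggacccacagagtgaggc
Per1: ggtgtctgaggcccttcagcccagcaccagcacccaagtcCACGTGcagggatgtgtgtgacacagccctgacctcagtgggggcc
Cry1: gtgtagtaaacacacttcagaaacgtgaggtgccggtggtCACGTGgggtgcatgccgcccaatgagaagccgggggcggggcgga
Bhlhe41: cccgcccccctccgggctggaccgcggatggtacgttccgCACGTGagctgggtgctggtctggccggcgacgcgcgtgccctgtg
Tef: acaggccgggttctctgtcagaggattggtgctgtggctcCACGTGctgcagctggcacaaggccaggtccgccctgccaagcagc
Ciart held 3 E-boxes, and they began 116 bases to 44 bases before its start. The next stretches carry the other 2 clock motifs in capitals. Per3 (chr4:151044776-151044910, minus strand) held 2 copies of the D-box TTATGTAA, the word that DBP, TEF, HLF and NFIL3 read, and Nfil3 (chr13:52981040-52981091, minus strand) held the RORE core TAGGTCA on the opposite strand, 12 bases before its start, where it reads as TGACCTA.
Per3: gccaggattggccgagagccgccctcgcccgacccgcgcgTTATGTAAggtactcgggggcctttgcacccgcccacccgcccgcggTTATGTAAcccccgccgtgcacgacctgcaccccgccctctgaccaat
Nfil3: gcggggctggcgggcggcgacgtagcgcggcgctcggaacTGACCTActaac

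The activators were high around lights on and low at lights off. Arntl read 73.2, 72.5, 73.1 and 81.2 scaled counts in the 4 animals at ZT24 and 1.41, 1.53, 1.07 and 1.49 at ZT12. Npas2, the partner of BMAL1 that can take the place of CLOCK, read 5.73, 5.18, 7.34 and 12.3 at ZT24 and 0.0735, 0.0778, 0.0523 and 0.0095 at ZT12. Every ZT24 animal was far above every ZT12 animal for both genes. The group means of Npas2 were 7.63 and 0.0533, a 143-fold difference, while its fitted ratio was 9.95 with a peak at ZT 0.373 ± 0.238 h (limma, adjusted p = 3.96e-12), which shows how much the added 1 compresses a gene that falls below 1 scaled count. Arntl peaked at ZT 22.6 ± 0.329 h with a ratio of 28.7. Clock moved less, from 35.2, 26.7, 25 and 34.9 at ZT12 to 126, 146, 109 and 131 at ZT24, again with no overlap, and peaked at ZT 22.5 ± 0.539 h with a ratio of 3.04. Rora was the only clock gene not called (ratio 1.11, limma, adjusted p = 0.395), and its group means ranged from 165 to 206 scaled counts.

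The repressors followed in sequence through the second part of the light phase and through the dark. Nr1d1 had the largest cycle of any clock gene. It read 88.1, 86.9, 80.2 and 78.8 scaled counts at ZT8 and 0.473, 0.485, 0.722 and 0.548 at ZT20, and its fitted ratio was 66.7 with a peak at ZT 7.92 ± 0.205 h. The groups were wide apart, with the lowest ZT8 animal at 78.8 and the highest ZT20 animal at 0.722. Its paralog Nr1d2 peaked at ZT 10.6 ± 0.197 h (ratio 16.4), from 14.6, 11.8, 8.73 and 18.1 at ZT0 to 168, 198, 274 and 219 at ZT12. The Per genes came next. Per1 read 21.7, 26.7, 22.7 and 19.1 at ZT12 and 0.782, 1.01, 1.08 and 1.36 at ZT4 and peaked at ZT 13.3 ± 0.395 h. Per3 read 60.8, 53, 62.7 and 50.1 and 2.27, 2.09, 1.23 and 2.22 at the same times and peaked at ZT 13.3 ± 0.313 h, so Per1 and Per3 could not be separated within their errors. Per2 was later, at ZT 16.1 ± 0.236 h, from 9.28, 5.0, 4.25 and 3.88 at ZT4 to 108, 105, 93.3 and 79 at ZT16. The ratios of Per1, Per2 and Per3 were 7.94, 13.9 and 15.2, and for none of them did the highest and lowest times overlap.

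The cryptochromes differed from each other. Cry1 read 154, 194, 204 and 189.6 scaled counts at ZT20 and 14.9, 15.3, 17 and 19.3 at ZT8, did not overlap between these times, and peaked at ZT 19.6 ± 0.209 h with a ratio of 9.68. Cry2 held a plateau rather than a peak, with group means of 42.5, 42.8, 37.6 and 45.9 at ZT8, ZT12, ZT16 and ZT20 and of 26.1, 25.8 and 24.6 at ZT0, ZT4 and ZT24. Its fitted peak of ZT 13.9 ± 0.67 h therefore marks the middle of a broad high stretch, and its ratio was only 1.73. The other repressors were Bhlhe41 at ZT 9.16 ± 0.589 h (ratio 2.26), Ciart at ZT 12.2 ± 0.339 h (3.13) and Bhlhe40 at ZT 14.9 ± 0.538 h (3.12). Bhlhe41 and Ciart averaged under 1 scaled count, and Ciart went from 0.0325 at ZT4 to 2.71 at ZT12, which is a larger swing than its fitted ratio shows.

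The PAR bZIP activators peaked around lights off and Nfil3, whose protein works against theirs, late in the night. Dbp read 45.7, 59.9, 39.96 and 43.6 scaled counts at ZT12 and 0.505, 0.41, 0.251 and 0.26 at ZT0, and peaked at ZT 10.6 ± 0.255 h with a ratio of 41.4. Tef read 86.2, 89.5, 127 and 99.5 at ZT12 and 15.7, 11.6, 9.61 and 8.04 at ZT0 and peaked at ZT 13 ± 0.293 h (8.38). Hlf peaked at ZT 13.2 ± 0.493 h with a smaller ratio of 2.56. Nfil3 ran the other way, at 63.6, 70.6, 62.4 and 68 at ZT0 against 12.7, 9.91, 12.2 and 11.7 at ZT8, with a peak at ZT 22.3 ± 0.22 h and a ratio of 5.49. No animal of the high time overlapped one of the low time for Dbp, Tef or Nfil3. Of Dbp's exon length 18% is overlapped by annotated genes on the other strand, as is 19% for Bhlhe41 and 8.55% for Nr1d1, and whether strand was used in counting is not given in the sources used here.

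Ordered by peak time, the rhythmic clock genes reported here ran Npas2, Nr1d1, Bhlhe41, Nr1d2, Dbp, Ciart, Tef, Hlf, Per1, Per3, Cry2, Bhlhe40, Per2, Cry1, Nfil3, Clock and Arntl. Neighbours lay more than 2 combined standard errors apart from Npas2 to Nr1d1, Bhlhe41 to Nr1d2, Dbp to Ciart, Per2 to Cry1 and Cry1 to Nfil3. The other neighbours did not differ beyond that. A component with a period of 12 h beside the 24-h cosine passed the test for 193 of all 25404 genes (0.76%) and for 9 of the 19 clock genes (Clock, Arntl, Cry2, Ciart, Per3, Bhlhe41, Per1, Nr1d1 and Dbp), whose waveforms thus departed from a single cosine. Leaving out the animals of 1 number at each time gave 4 to 7 clock genes and 33 to 60 genes in all.

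**Figure D2:**
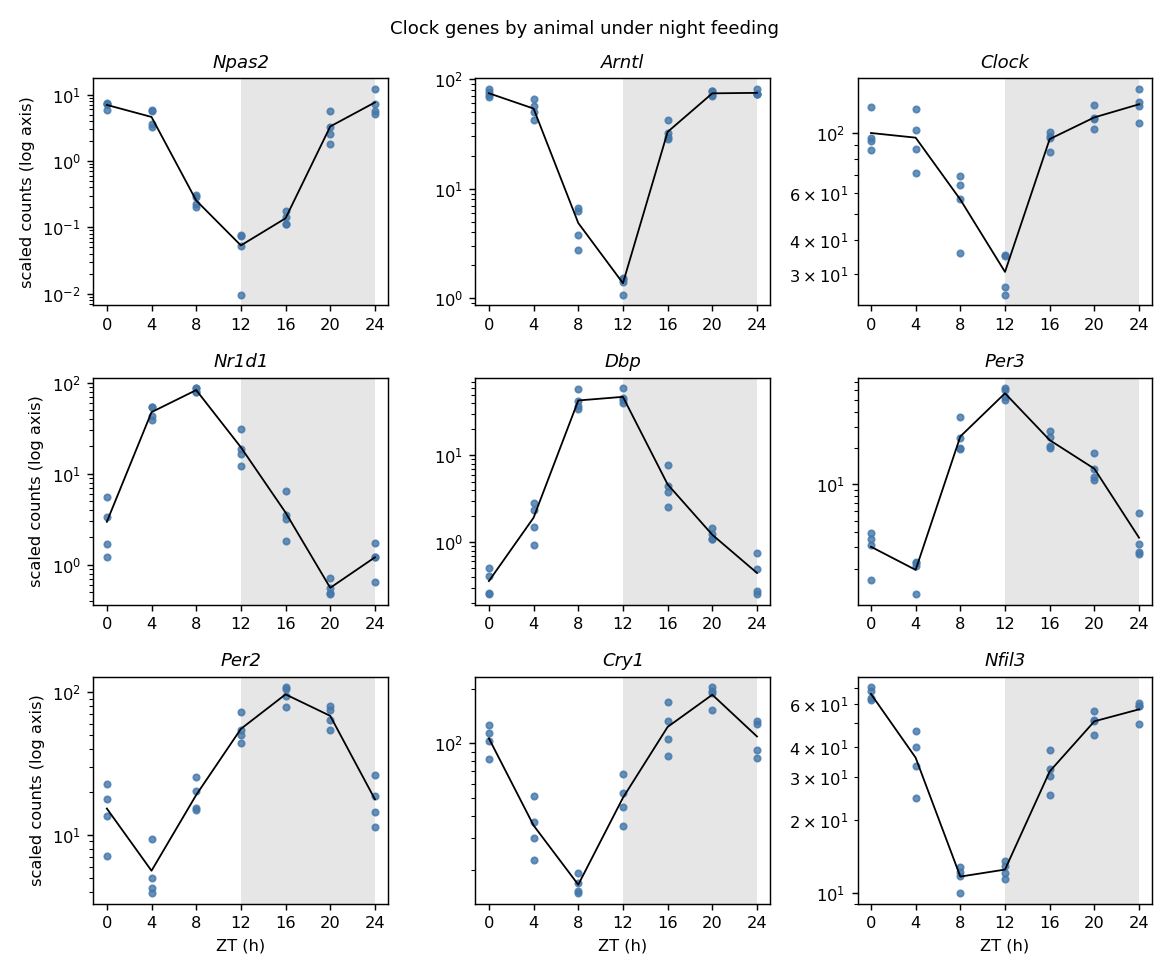
Scaled counts (y axes, log scale) of 9 clock genes against ZT in hours under night feeding, with a point per animal and a line through the means of the 4 animals at each time; grey marks the dark phase. Npas2, Arntl and Clock reach their lowest mean at ZT12, when Dbp and Per3 reach their highest, Nr1d1 is highest at ZT8, and Per2, Cry1 and Nfil3 follow at ZT16, ZT20 and ZT0.

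Across all protein-coding genes tested whose promoter was matched (11623 of 15100), 11% held an E-box in the window, against 13.4% of the 1958 with a ratio of at least 1.5. By 4-h bins of peak time from ZT0 the share was 9.94%, 12.3%, 16.1%, 18.3%, 12.6% and 11.9%. The highest share, in the genes that peaked between ZT12 and ZT16, is in the bin that holds 3 of the 5 E-box clock genes (Ciart, Tef and Per1), so these counts share members. The D-box was rare, in 0.835% of the protein-coding genes and in 2.88% of the ZT12 to ZT16 bin, which is 6 of 208 genes. The RORE core was held by 2.55% of the protein-coding genes, by 4.97% of those that peaked between ZT0 and ZT4 (8 of 161) and by 4.86% of those between ZT20 and ZT24 (16 of 329). Both strands were searched, and over all 32851 windows of this length in the table the shares were 7.15% for the E-box, 0.938% for the D-box and 2.61% for the RORE core. A match is a string of letters in a window and was not tested for binding.

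**Figure D3:**
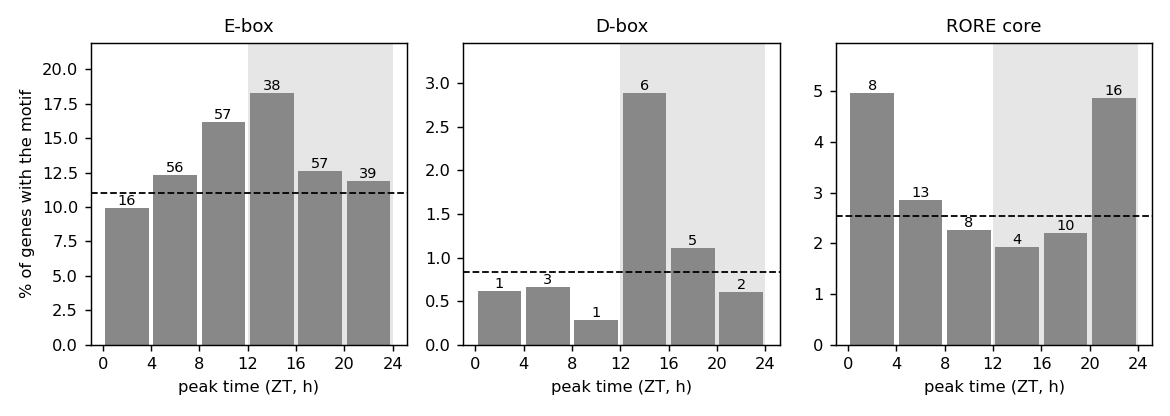
Percent of genes (y axes, from 0) whose promoter window holds the E-box, the D-box or the RORE core, by fitted peak time in 4-h bins (x axes, ZT in hours), for protein-coding genes with a peak-to-trough ratio of at least 1.5. The number above each bar counts the genes with the motif, the dashed line is the share over all protein-coding genes tested (11%, 0.835% and 2.55%), and the E-box and D-box bars are highest at ZT12 to ZT16 while the RORE bars are highest at ZT0 to ZT4 and ZT20 to ZT24.

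The known output genes of the clock peaked mainly in the first part of the night. Of 15 listed, 14 were rhythmic with a ratio of at least 1.5, their median ratio over the list was 4.79, and 11 of the 14 peaked between ZT12 and ZT18. Usp2, a ubiquitin protease, had the largest ratio, 19, and read 38.9, 32.7, 35.5 and 32.8 scaled counts at ZT12 against 0.642, 0.173, 0.62 and 0.19 at ZT4. Alas1, the first and limiting enzyme of heme synthesis, ranged 203 to 386 at ZT12 and 9.09 to 57.1 at ZT4 and peaked at ZT 14.3 ± 0.507 h (ratio 6.94). Por, which passes electrons to the P450 enzymes, was tight within each time, with 239.9, 258, 236 and 236 at ZT12 and 70.1, 60.3, 52.8 and 43.7 at ZT24, and peaked at ZT 13 ± 0.244 h (4.13). All 3 genes had groups that did not overlap. Wee1, a kinase that holds cells before mitosis, peaked at ZT 14 ± 0.241 h (7.46), and Nampt, the limiting enzyme of NAD salvage, at ZT 15.7 ± 0.261 h (3.35). The list also holds Noct, a deadenylase relative, at ZT 15.5 ± 0.372 h (11.9). Ces3a was not called (ratio 1.2, limma, adjusted p = 0.235).

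Genes that burn fat peaked mostly in the second part of the light phase, during the fast. Of 25 genes of fatty acid oxidation and ketogenesis, 15 were rhythmic, 9 had a ratio of at least 1.5, and 11 of the 15 peaked between ZT6 and ZT12. Cpt1a, which carries long-chain fatty acids into mitochondria, read 229, 256, 235 and 242 scaled counts at ZT12 and 72.5, 66.8, 72.8 and 79.95 at ZT20, with no overlap, and peaked at ZT 10.9 ± 0.317 h (ratio 3.19). Bdh1, an enzyme of ketone body metabolism, peaked at ZT 8.93 ± 0.399 h (2.02) and Ppara, the fatty acid receptor that drives this program, at ZT 11.1 ± 0.493 h (2.22). The 10 genes that did not pass the test included the oxidation enzymes Ehhadh, with a ratio of 1.08 (limma, adjusted p = 0.855), and Acadvl, with one of 1.1 (0.266). Pdk4, a kinase that turns off pyruvate oxidation, was among the 4 that peaked outside that stretch. It read 21.3, 39.98, 22.7 and 24.9 at ZT0 and 5.6, 5.25, 2.23 and 3.33 at ZT8 and peaked at ZT 23.3 ± 0.447 h (5.99), about opposite to Cpt1a.

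The genes of glucose output did not share a phase. Of 12 gluconeogenic genes, 9 were rhythmic and 7 had a ratio of at least 1.5. Pck1, the enzyme that commits oxaloacetate to glucose synthesis, read 740.3, 1245, 1121 and 1036 scaled counts at ZT12 and 141, 73, 216 and 151 at ZT20, and it peaked at ZT 10.8 ± 0.594 h (ratio 5.45). G6pc, the last enzyme of the path, read 176, 333, 297 and 367 at ZT16 and 40.9, 68.2, 49.8 and 78.7 at ZT8, and it peaked at ZT 19.5 ± 0.498 h (4.09). Neither gene had overlapping groups, and the first peaked before lights off and the second well into the night. Foxo1, a transcription factor held back by insulin, peaked at ZT 13.1 ± 0.659 h (1.55), while Fbp1, with 1972 scaled counts on average, was not called (ratio 1.11, limma, adjusted p = 0.367).

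**Figure D4:**
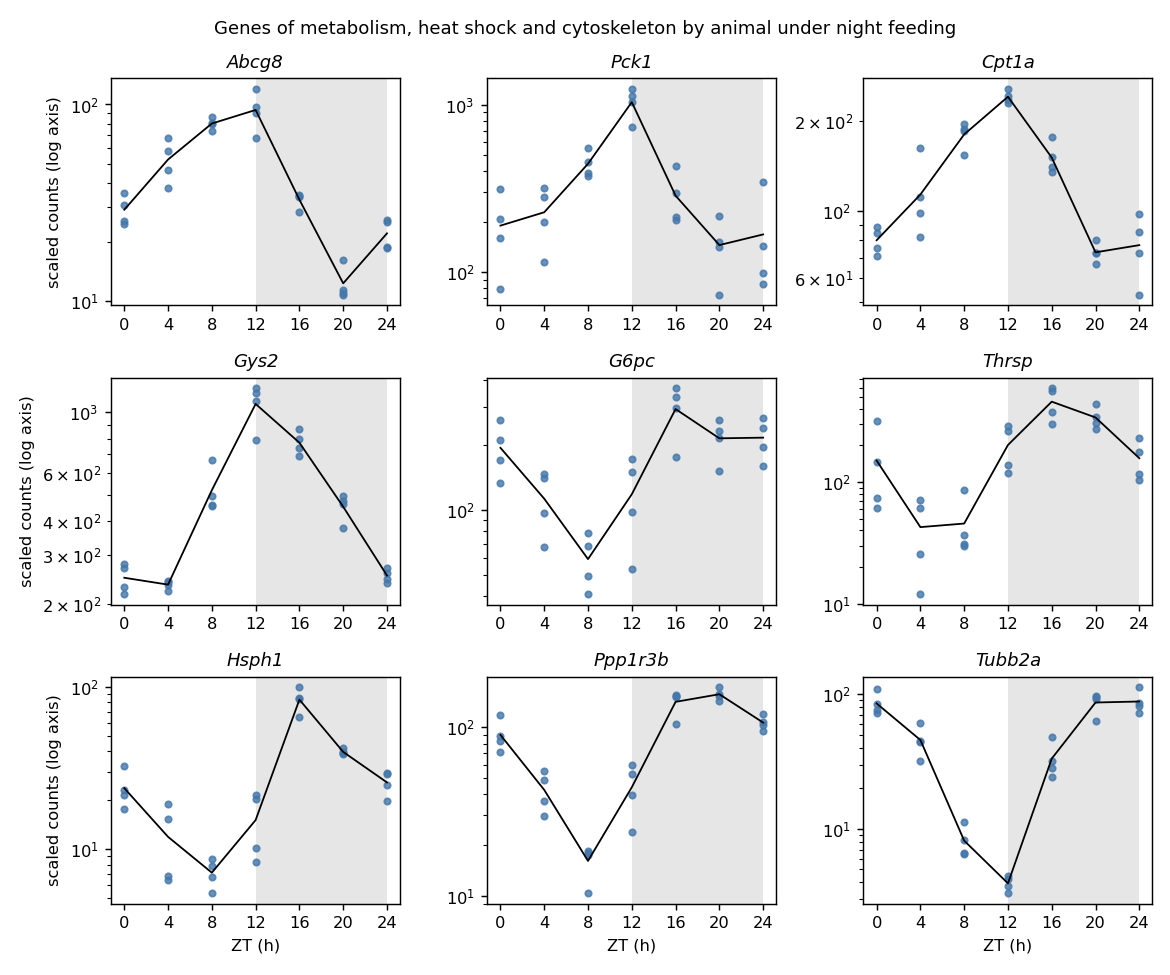
Scaled counts (y axes, log scale) of 9 genes of sterol export, fasting, glycogen, lipogenesis, heat shock and the cytoskeleton against ZT in hours under night feeding, with a point per animal and a line through the means of 4 animals; grey marks the dark phase. Abcg8, Pck1, Cpt1a and Gys2 are highest at ZT12, Thrsp, G6pc and Hsph1 at ZT16, Ppp1r3b at ZT20 and Tubb2a at ZT24, when Gys2 is near its lowest level.

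Glycogen genes peaked from lights off to late night. Of 22 genes of glucose uptake, glycolysis and glycogen, 19 were rhythmic, 12 had a ratio of at least 1.5, and 17 of the 19 peaked in the dark. Gys2 (ENSMUSG00000030244, chr6:142422613-142473109, minus strand), the liver glycogen synthase, was the rhythmic gene with the third smallest p of the whole table. It read 792, 1170.4, 1223 and 1093 scaled counts at ZT12 and 222, 241, 234 and 241 at ZT4, and it peaked at ZT 13.6 ± 0.204 h (ratio 4.46, limma, adjusted p = 5.18e-13). Every ZT12 animal was more than 3 times above every ZT4 animal. Ppp1r3b and Ppp1r3c, subunits that bring protein phosphatase to glycogen and so activate the synthase, came later. Ppp1r3b read 158, 173, 154 and 143 at ZT20 and 18.6, 17.6, 10.4 and 18.1 at ZT8, peaking at ZT 19.6 ± 0.248 h (8.82). Ppp1r3c read 41.4, 49.2, 51.8 and 48 at ZT20 and 3.92, 3.02, 4.7 and 3.44 at ZT12, peaking at ZT 23.3 ± 0.373 h (7.22). Neither subunit gene overlapped between those times. Gpi1, a glycolytic enzyme, had a smaller ratio of 1.36.

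Lipogenic genes peaked together in the second part of the feeding phase. Of 14 tested, 13 were rhythmic and 12 had a ratio of at least 1.5, their median ratio was 2.47, and 11 of the 13 peaked between ZT18 and ZT24. Thrsp, a lipogenic protein switched on by feeding, ranged 300.0 to 595 scaled counts at ZT16 and 11.9 to 71.8 at ZT4, and peaked at ZT 17.6 ± 0.357 h (ratio 14.5). Elovl6, which lengthens C16 fatty acids, read 160.1, 161, 81.6 and 160.3 at ZT20 and 20.2, 20.6, 28.1 and 15.5 at ZT8 and peaked at ZT 18.6 ± 0.411 h (5.59). Both had separate groups, although the ZT20 animals of Elovl6 were uneven, with 1 of the 4 far below the others. Fasn, the fatty acid synthase, peaked at ZT 19.7 ± 0.463 h (5.68), Acly, which supplies its acetyl-CoA, at ZT 20.6 ± 0.5 h (3.83), and Srebf1, the factor that drives the path under insulin, at ZT 18.2 ± 0.468 h (2.54). Elovl5, which acts on polyunsaturated fatty acids, was the one that peaked in the light, at ZT 2.35 ± 0.521 h (2.0).

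Cholesterol synthesis genes had a median ratio of 1.53. Of 25 tested, 16 were rhythmic and 14 had a ratio of at least 1.5, with 10 of the 16 peaking between ZT18 and ZT24. Insig1, which holds the SREBP factors in the ER, read 323, 381, 267 and 362 scaled counts at ZT20 and 176, 196, 159.8 and 141 at ZT8, without overlap, and peaked at ZT 19.6 ± 0.585 h (ratio 1.88). Hmgcs1, an early enzyme of the path, peaked in the early light phase, at ZT 3.32 ± 0.647 h (2.75), and Srebf2, the main factor of this path, was not called (ratio 1.26, limma, adjusted p = 0.0675). Without animals number 3 only 10 of the 25 were rhythmic and without animals number 4 only 8.

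The sterol exporter peaked in the light, and bile acid genes were spread. Abcg5 and Abcg8 encode the 2 parts of the transporter that moves sterols into bile. Abcg8 read 67.5, 97.4, 120.2 and 90.04 scaled counts at ZT12 and 11.4, 10.8, 16.2 and 11 at ZT20, and peaked at ZT 8.86 ± 0.289 h (ratio 5.92). Abcg5 read 205, 280.3, 324 and 292 and 62, 57.2, 74.1 and 57.6 at the same times and peaked at ZT 10.4 ± 0.263 h (3.96). The groups were separate for both. Over the 17 bile acid genes, 13 were rhythmic and 11 had a ratio of at least 1.5, with 4 peaks in each 6-h stretch up to ZT18 and 1 after it. Cyp7a1, the limiting enzyme of bile acid synthesis, peaked at ZT 16.2 ± 0.632 h (4.44), about 12 h after Nr0b2, which encodes its repressor SHP and peaked at ZT 3.95 ± 0.637 h (3.04). Hsd3b7, a later enzyme of the same path, peaked at ZT 3.94 ± 0.303 h (3.96), but 62.4% of its exon length is overlapped by genes on the other strand.

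Among the 19 genes of drug metabolism, 15 were rhythmic and 10 had a ratio of at least 1.5, and none peaked before ZT6. Cyp2e1, the ethanol-oxidising P450, read 6223, 7362, 5630.3 and 6129 scaled counts at ZT8 and 3352, 3333, 3286 and 2562 at ZT24, with no overlap, and peaked at ZT 11.9 ± 0.38 h (ratio 2.16). Rxra, the shared partner of the nuclear receptors, peaked at ZT 11.8 ± 0.418 h with a small ratio of 1.46. Cyp2a4 peaked at ZT 15.6 ± 0.392 h (2.98), and its near-identical copy Cyp2a5 at ZT 14.7 ± 0.369 h (6.01), so counts of this pair may be exchanged between them. Ahr, the dioxin receptor, was not called (ratio 1.13, limma, adjusted p = 0.619).

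Heat shock genes peaked together in the middle of the feeding phase. Of 16 tested, 14 were rhythmic, all 14 had a ratio of at least 1.5, and all 14 peaked between ZT 16.1 and ZT 20.2. Their median ratio over the list was 2.85. Of the 12 heat shock genes with a matched promoter, 9 held the core of the heat shock element, GAANNTTC, against 7.19% of protein-coding genes. The windows of 3 of them are printed here with the core in capitals, the 3 rhythmic members with the smallest p among those with a core before the start. Hspb1 (chr5:135887762-135887869, plus strand) held 2 cores, and Dnaja1 (chr4:40722304-40722391, plus strand) and Hspd1 (chr1:55088024-55088111, minus strand) held 1 each.
Hspb1: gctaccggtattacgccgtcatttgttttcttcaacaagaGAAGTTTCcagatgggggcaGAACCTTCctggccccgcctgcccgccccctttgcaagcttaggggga
Dnaja1: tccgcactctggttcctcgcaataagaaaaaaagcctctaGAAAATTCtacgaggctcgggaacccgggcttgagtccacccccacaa
Hspd1: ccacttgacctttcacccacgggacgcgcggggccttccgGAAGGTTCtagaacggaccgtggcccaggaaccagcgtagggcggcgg
Hsph1, a large chaperone of the HSP110 family, read 83.9, 99.5, 85.2 and 64.6 scaled counts at ZT16 and 6.72, 8.71, 5.32 and 7.83 at ZT8, and peaked at ZT 18.4 ± 0.354 h (ratio 8.01). Chordc1, a partner of HSP90, read 33.6, 32.1, 24.9 and 24.1 at ZT16 and 6.02, 6.51, 4.95 and 5.31 at ZT8 and peaked at ZT 18.5 ± 0.33 h (3.77). For both, the 4 ZT16 animals stood above all animals of the other times, of which ZT20 came next, at 38.4 to 41.8 and 18.6 to 21. Hsp90ab1, an HSP90 chaperone, peaked at ZT 18.7 ± 0.369 h (2.22). The members printed above, Hspb1, Dnaja1 and Hspd1, had ratios of 3.25, 2.91 and 1.53. Hsf1, the factor that binds the element, was not called (ratio 1.19, limma, adjusted p = 0.244), nor was Hspe1 (ratio 2.8, adjusted p = 0.069). The cold-inducible RNA-binding proteins ran the other way. Cirbp read 3.19, 4.43, 3.84 and 4.07 at ZT8 and 0.64, 0.706, 0.846 and 0.847 at ZT16, with no overlap, and peaked at ZT 6.87 ± 0.34 h (2.98), and Rbm3 peaked at ZT 11.2 ± 0.65 h (1.68).

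Chaperones of the endoplasmic reticulum (ER) peaked in the later night. Of 22 genes of ER folding and the unfolded protein response, 20 were rhythmic, 16 had a ratio of at least 1.5 and 16 of the 20 peaked between ZT18 and ZT24. The circular mean of their peaks was ZT 20.1, against ZT 18.2 for the heat shock genes. Hyou1, an ER chaperone of the HSP70 class, read 88.5, 98.6, 85.8 and 97.6 scaled counts at ZT20 and 29.9, 27.6, 44.7 and 27.8 at ZT8, without overlap, and peaked at ZT 20.2 ± 0.346 h (ratio 3.3). Dnajc3, which curbs the ER stress kinase PERK, peaked at ZT 19.3 ± 0.283 h (1.86), and Calr, a calcium-binding lectin chaperone, at ZT 22.1 ± 0.444 h (1.9). Herpud1, of the ER disposal path, peaked in the light, at ZT 11.7 ± 0.523 h (2.55), and Xbp1 as a whole gene was not called (ratio 1.16, limma, adjusted p = 0.173). Of 16 genes of the integrated stress response 6 were rhythmic (37.5%), beside 38.5% of all genes and 57.9% of protein-coding genes with a mean of at least 5. Trib3, a pseudokinase that this response induces, read 15.7, 9.95, 13.2 and 16.2 at ZT8 and 0.979, 0.932, 0.707 and 0.626 at ZT16 and peaked at ZT 7.57 ± 0.289 h (7.55). Its groups were separate. Atf5 peaked at ZT 2.76 ± 0.481 h (3.15) and Chac1 at ZT 7.72 ± 0.598 h (1.73), while Atf4, Ddit3 and Asns were not called, with ratios of 1.05, 1.11 and 1.09.

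Amino acid breakdown and the urea cycle had 21 of 30 genes rhythmic and 17 with a ratio of at least 1.5, and their peaks were spread, with 15 of 21 in the dark. Cbs, the first enzyme from homocysteine to cysteine, read 186, 209, 221 and 199 scaled counts at ZT0 and 74.2, 86.9, 93.9 and 111 at ZT16, without overlap, and peaked at ZT 2.4 ± 0.257 h (ratio 2.46). Asl, which forms arginine in the urea cycle, read 522, 665, 563 and 602 at ZT20 and 230.2, 246, 304 and 231 at ZT8 and peaked at ZT 18.2 ± 0.344 h (2.4). Its groups were separate as well. Agxt, which detoxifies glyoxylate, peaked at ZT 5.75 ± 0.388 h (2.29). Cps1, the entry enzyme of the urea cycle, averaged 18851 scaled counts and peaked at ZT 19.3 ± 0.788 h (1.81), whereas Otc was not called (ratio 1.2, limma, adjusted p = 0.0665).

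Genes that glucocorticoids induce did not peak together, and 9 of 12 were rhythmic. Tsc22d3, also known as GILZ, read 282, 373, 329 and 345 scaled counts at ZT16 and 116, 98.1, 95.1 and 76.5 at ZT4 and peaked at ZT 17.6 ± 0.253 h (ratio 3.81). Klf9, a Krüppel-like factor, peaked at ZT 8.29 ± 0.271 h (3.02). Mt2, a metallothionein that binds zinc, ranged 38.2 to 66.7 at ZT8 and 0.903 to 4.98 at ZT24, with a ratio of 18.7, but the 4 animals at ZT12 were split, with 64, 49.8, 5.31 and 8.69, and 73.5% of its exon length is overlapped by genes on the other strand. Nr3c1, the glucocorticoid receptor, was not called (ratio 1.46, limma, adjusted p = 0.164). Of 11 immediate early genes 6 were rhythmic. Junb, an AP-1 subunit, ranged 12.3 to 21.9 at ZT8 and 1.2 to 2.03 at ZT24 and peaked at ZT 7.86 ± 0.521 h (4.98), Atf3 at ZT 17.8 ± 0.561 h (2.64) and Fosl2 at ZT 19.1 ± 0.593 h (1.51). Fos had a ratio of 1.04 (adjusted p = 0.954).

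All 10 tubulin genes tested were rhythmic, 9 with a ratio of at least 1.5, and all peaked around the end of the night, between ZT 20.3 and ZT 0.379. Tubb2a, a beta tubulin, read 81.6, 72, 86.5 and 113 scaled counts at ZT24 and 3.31, 3.75, 4.25 and 4.43 at ZT12 and peaked at ZT 22.5 ± 0.245 h (ratio 17.9). Tubb2b, a close paralog on the same chromosome, 13, read 10.03, 8.95, 10.1 and 13.3 and 0, 0.44, 0 and 0 at these times. Both fell to their lowest values at ZT12, where 3 of 4 animals had 0 recovered counts of Tubb2b, and reads of this pair may be exchanged in counting. Tubb4b peaked at ZT 22 ± 0.355 h (3.09). In the cell cycle list, 10 of 20 genes were rhythmic, led by Cdkn1a, which encodes the inhibitor p21 and peaked at ZT 23.3 ± 0.442 h (2.71), Ccne2 at ZT 15.3 ± 0.429 h (1.95) and Ccne1 at ZT 11.6 ± 0.589 h (1.72). Pcna was not called (ratio 1.04).

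The machinery for making and degrading proteins differed in how many of its genes cycled. Of 26 genes of ribosome biogenesis 21 were rhythmic and 9 had a ratio of at least 1.5, with 17 of 21 peaking in the dark. Utp20, of the small-subunit processome, ranged 45.1 to 64.2 scaled counts at ZT16 and 29.4 to 32.4 at ZT8 and peaked at ZT 18.8 ± 0.401 h (ratio 1.85), with Heatr1 of the same complex at ZT 19.3 ± 0.473 h (1.86) and Wdr12, of the large-subunit path, at ZT 18.1 ± 0.496 h (1.54). Of 77 cytosolic ribosomal protein genes, in contrast, 5 were rhythmic and 3 reached the ratio of 1.5, which is 6.49% and 3.90%, below the 38.5% and 12.8% of all genes. Their median ratio was 1.19, and the count fell to 0 of 77 when a linear drift over time was added to the fit. Rpl38, with a ratio of 2.06, had 4 animals at ZT12 that read 84.2, 134, 21.3 and 33.7. The other rhythmic members of smallest p were Rps27l, a p53 target, at ZT 18.9 ± 0.878 h (1.39), and Rps21 at ZT 5.45 ± 0.89 h (1.74), each with 1 or more calls lost in the alternatives. Of 78 mitochondrial ribosomal protein genes 26 were rhythmic and 5 reached 1.5, with Mrpl34 at ZT 20.6 ± 0.478 h (1.67), and of 76 respiratory chain genes 18 and 3, with Cox5a at ZT 18.9 ± 0.697 h (1.34). Proteasome genes were rhythmic in 19 of 38 cases but reached 1.5 in only 4, and 12 of the 19 peaked between ZT18 and ZT24. Psmd14, the deubiquitinase of the proteasome lid, ranged 11.9 to 14 at ZT24 and 5.57 to 6.71 at ZT12 and peaked at ZT 22.4 ± 0.437 h (1.78). Without animals number 4 the proteasome count was 10 of 38. Of 17 aminoacyl-tRNA synthetases 10 were rhythmic, and Tars, which charges threonine tRNA, had the largest ratio of these, 2.8, with 74.9, 79.9, 69.4 and 81 at ZT0 and 23.4, 25.5, 22.6 and 26.6 at ZT12 and a peak at ZT 23.7 ± 0.301 h. Among SR and hnRNP splicing factors 19 of 27 were rhythmic and 8 had a ratio of at least 1.5. Srsf10 peaked at ZT 19.2 ± 0.327 h (1.87), Hnrnpl at ZT 6.77 ± 0.391 h (1.9) and Hnrnpc at ZT 19.9 ± 0.414 h (1.63).

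Of 23 autophagy genes 11 were rhythmic (47.8%), and 4 of these 11 peaked in the dark, beside 44.1% of all 9791 rhythmic genes. Ulk1, the kinase that starts autophagy, ranged 63.9 to 75.1 scaled counts at ZT8 and 23.7 to 28.9 at ZT20 and peaked at ZT 8.48 ± 0.302 h (ratio 2.82). Atg2a, a lipid transfer protein of the forming vesicle, peaked at ZT 8.02 ± 0.353 h (1.97) and Bnip3, a receptor for mitochondria, at ZT 11.9 ± 0.464 h (2.9). Becn1, Sqstm1 and Map1lc3b were rhythmic with ratios of 1.18, 1.6 and 1.56, while Atg5 and Atg7 were not called (ratios 1.07 and 1.14). In NAD metabolism 12 of 16 genes were rhythmic. Nmrk1, the nicotinamide riboside kinase, peaked at ZT 14.8 ± 0.289 h (3.22), within 1 h of Nampt, whereas Nadsyn1, of the other route to NAD, peaked at ZT 9.24 ± 0.286 h (1.78). Of 16 genes of insulin and IGF signalling 13 were rhythmic, among them Foxo3 at ZT 13 ± 0.457 h (2.02), Igfbp4 at ZT 13.2 ± 0.435 h (1.68) and Ddit4, an inhibitor of mTORC1, at ZT 21.2 ± 0.424 h (1.97).

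In the heme and iron list 7 of 14 genes were rhythmic and only Alas1 and Tfrc reached the ratio of 1.5. Tfrc, the transferrin receptor, read 61, 45.7, 57.3 and 65.4 scaled counts at ZT20 and 4.19, 3.35, 3.11 and 4.25 at ZT8 and peaked at ZT 18.2 ± 0.326 h with a ratio of 12.7. All ZT20 animals were at least 10 times above all ZT8 animals. Fech, which inserts the iron, peaked at ZT 10.2 ± 0.692 h (1.42). Ftl1 and Fth1, the ferritin chains, were not called (adjusted p = 0.115 and 0.0604, limma). Of 19 acute phase and blood protein genes 7 were rhythmic. The 3 fibrinogen genes peaked together, Fgg at ZT 5.14 ± 0.431 h (1.64), Fga at ZT 5.33 ± 0.434 h (1.76) and Fgb at ZT 5.99 ± 0.49 h (1.58), and Fgg ranged 1887 to 2429 at ZT4 and 1128 to 1506 at ZT16. All 3 calls were lost with the values as deposited. Albumin, Alb, was not called (ratio 1.14, adjusted p = 0.934).

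Of 20 genes of the basement membrane and collagen processing 12 were rhythmic and 5 had a ratio of at least 1.5. The 2 chains of basement membrane collagen, Col4a1 and Col4a2, peaked at ZT 3.81 ± 0.39 h (1.94) and ZT 5.33 ± 0.44 h (1.95), and Col4a1 ranged 170.0 to 234 scaled counts at ZT4 and 89.6 to 114 at ZT16. P4ha1, the enzyme that hydroxylates collagen prolines, was about opposite, at ZT 18.3 ± 0.303 h (3.0). Among 14 hepatocyte identity factors 8 were rhythmic. Hnf4a, a nuclear receptor that maintains hepatocytes, ranged 1212 to 1449.9 at ZT16 and 635 to 796 at ZT8 and peaked at ZT 17.1 ± 0.491 h (1.59), Cebpb at ZT 10.9 ± 0.666 h (2.35) and Tbx3 at ZT 6.53 ± 0.495 h (2.01). Nr5a2 was not called (ratio 1.04).

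**Figure D5:**
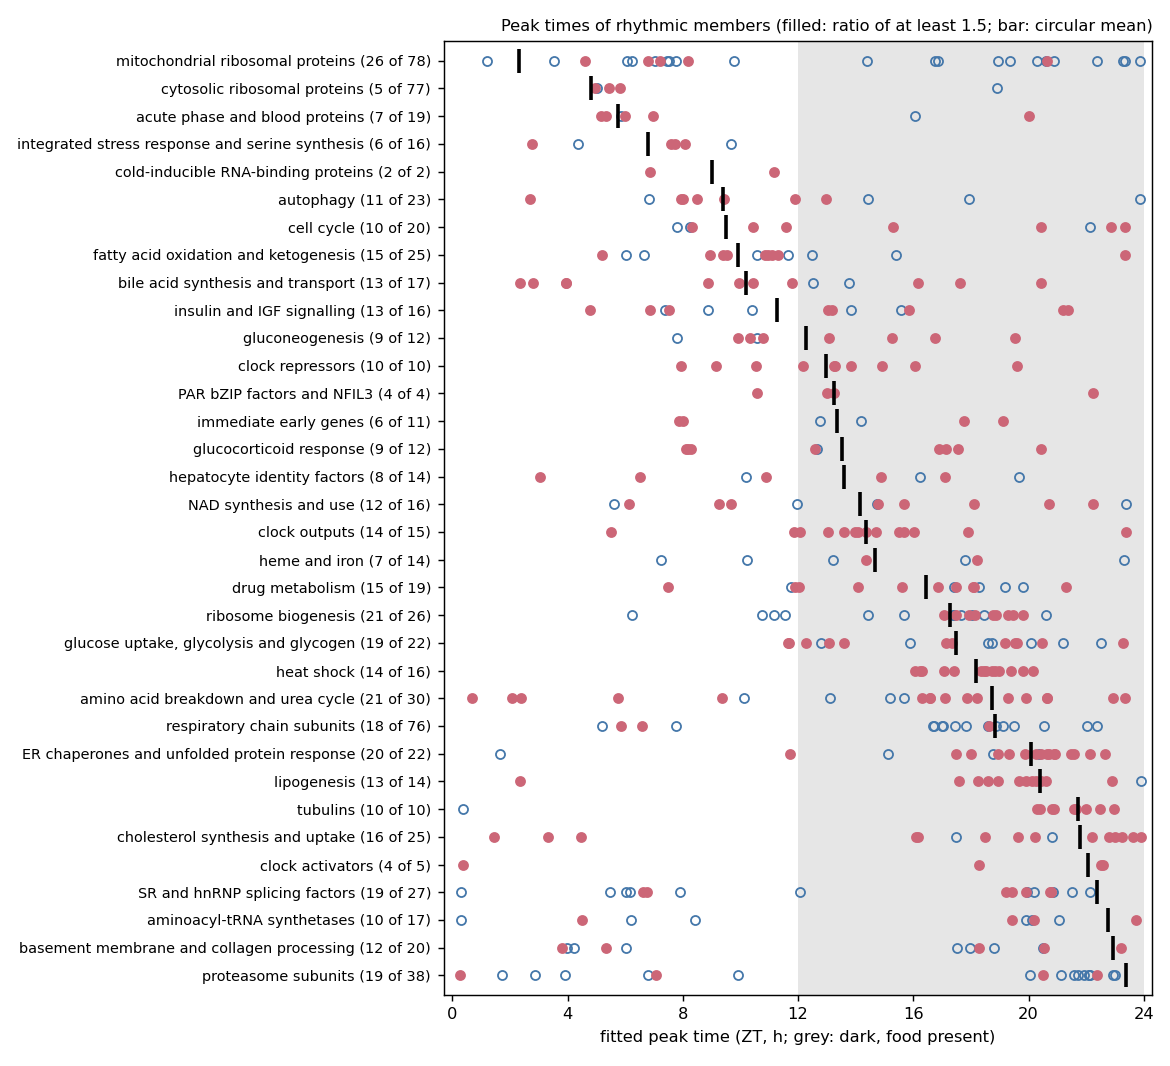
Fitted peak times (x axis, ZT in hours) of the rhythmic members of 34 gene lists (rows, with the number rhythmic of the number tested), with filled points for a peak-to-trough ratio of at least 1.5, open points for smaller ratios and a black bar at the circular mean of each list; grey marks the dark phase, when food was present. Heat shock, lipogenic, ER and tubulin genes bunch between ZT16 and ZT24 and fatty acid oxidation genes between ZT6 and ZT12, while bile acid, NAD, cell cycle and insulin signalling genes are spread over the day.

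Several of the strongest rhythms lay outside these lists. Loxl4 (ENSMUSG00000025185, chr19:42593982-42612813, minus strand), a lysyl oxidase that cross-links matrix, had the smallest p of all 25404 genes (limma, adjusted p = 2.18e-15). It read 37.5, 24.4, 31.8 and 36.9 scaled counts at ZT24 and 0.966, 1.58, 1.4 and 0.777 at ZT12, its means fell at each time from ZT0 to ZT12 and rose at each from there to ZT24, and it peaked at ZT 0.148 ± 0.163 h with a ratio of 16.9. Homer2, a scaffold protein, peaked at ZT 15.5 ± 0.205 h (3.2), Gde1, a glycerophosphodiesterase, at ZT 16.3 ± 0.195 h (3.48), and Pcsk4, a proprotein convertase, at ZT 11.7 ± 0.244 h (5.98). XLOC_039213, an assembled locus for which the table gives no gene name, was also among the 10 smallest p, at 0.477 scaled counts on average and a peak at ZT 22.9 ± 0.234 h. Tsku, a secreted protein of the small leucine-rich class, read 217, 237, 186 and 222 at ZT16 and 11.8, 9.62, 8.56 and 15 at ZT8 and peaked at ZT 17.3 ± 0.334 h (22.3). Rgs16, a regulator of G protein signalling, ranged 13.5 to 36.4 at ZT8 and 0.203 to 3.15 at ZT20 and peaked at ZT 8.64 ± 0.373 h (19.6).

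The 2 genes with the largest fitted amplitude were not graded rhythms. Gm47287 (chr12:69159437-69159506, plus strand) and Gm47305 (chr12:69361270-69361339, minus strand) are annotated as miRNA genes on chromosome 12. Gm47287 read 729, 532, 0.00329 and 862 scaled counts in the animals of ZT16 and 108, 686, 527 and 890.3 at ZT20, and stood at 249 on average at ZT12 only because 1 animal read 994. In the other 20 libraries it stood at 1 recovered count. Gm47305 was high in the same animals at ZT16, with 770.3, 915, 0.00329 and 913, and in 3 of 4 at ZT20, with 468, 737, 545 and 0.00169, as well as in 1 animal each at ZT12 and ZT24. Values were therefore all or none among the animals of a time, no fold is given, and the calls (limma, adjusted p = 1.93e-04 and 0.00219) rest on how many animals were high.

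Markers of the other cells of the liver also moved in part. Of 10 markers of sinusoidal endothelium 5 were rhythmic and none had a ratio of at least 1.5, of 10 Kupffer cell markers 3 and 1, of 10 stellate cell markers 3 and 3, of 6 cholangiocyte markers 3 and 3, of 8 lymphocyte markers 5 and 0, and of 5 red blood cell markers 0 and 0. Their summed levels were 801 to 995 scaled counts for the endothelial markers, 636 to 1383 for the Kupffer markers, 763 to 1019 for the stellate markers, 21.7 to 38.9 for the cholangiocyte markers, 16.4 to 36.9 for the lymphocyte markers and 469 to 1351 for the red cell markers. The part of other cells in the rhythms was not tested. A length index, which ranks genes by exon length and correlates this with how far a library deviates from the mean, also moved with time. Its means from ZT0 to ZT24 were -0.207, -0.0781, -0.157, 0.0334, 0.117, 0.101 and 0.171. It did not return after 24 h, with -0.349 to 0.0165 at ZT0 and 0.0414 to 0.256 at ZT24. Whether the index drifted or cycled was not tested, nor was its part in the differences between ZT0 and ZT24. The dark share of the rhythmic protein-coding genes also went with length, from 37.1% in the shortest of 4 equal length classes to 55.9% in the longest, and with the index as a covariate it was 49.5% and 49.6%. The covariate left 8683 rhythmic genes, and the peaks of the 2498 genes with a ratio of at least 1.5 in both fits moved by a median of 0.184 h.

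ZT0 and ZT24 are 24 h apart, so a repeating rhythm has the same level at both. Between them 704 of 25404 genes differed (2.77%), 143 higher and 561 lower at ZT24, and these held 389 rhythmic genes and 181 of those with a ratio of at least 1.5. None of the 19 clock genes was among the 704. The count rested on few animals. It was 1 gene without animals number 2 and 2 genes without animals number 4, against 246 without number 3 and 962 without number 1. At an unadjusted p under 0.05, which about 1 in 20 unchanged genes pass by chance, 4205 of the 25404 genes differed.

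In a test of whether the cosine differed between NRF and DRF, fitted to all 56 libraries, 9845 of 25404 genes passed (38.8%), as did 7345 of the 9791 genes rhythmic under NRF and 18 of the 19 clock genes, Rora being the other. Col4a2 and Rpl38 did not pass (limma, adjusted p = 0.204 and 0.881), nor did Rora or Gm47305 (0.0852 and 0.176), so for these no difference between regimens was shown. A difference can lie in the peak time or in the amplitude. Of the 120 genes named by rule, 103 were also rhythmic in the DRF libraries alone, among them Tubb2a, with a DRF peak at ZT 10.9 ± 0.25 h, and Elovl6, at ZT 6.96 ± 0.424 h. Most of the 120 were picked for strong rhythms under NRF. The share of all genes rhythmic under DRF is not given here, so the 103 cannot be read against it. All 14 rhythmic heat shock genes, all 13 lipogenic genes and all 10 tubulin genes passed.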

How the data were processed

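Liver RNA of 28 NRF mice, 4 at each of 7 times, was examined beside 28 DRF libraries of the same table. Per the submitters' processing notes and methods, reads of 150 bases were base-called with CASAVA 1.8 and counted with featureCounts 1.5.0-p3 on mm10 (GRCm38.p6). The values the authors deposited are labelled TPM but are not linear, so they were treated as a score. Multiplied by a gene's exon length, each follows the natural log of 1 plus a scaled whole count, and this was inverted to give scaled counts and recovered counts. The inversion was possible for 25404 of 25415 genes, with GENCODE exon lengths for 23146 and a searched length for 2207. The other 51 had counts too high to judge and kept the GENCODE length unchecked. In 4849 genes not used to fit the constants, 95.7 to 98.8% of recovered counts up to 20000 lay within 0.05 of a whole number. Chance gives 10%. The counts of Cps1 and Cyp2e1 lay above 20000 and outside this check. Recovered counts are not the number of reads, and intervals cover counting only. Labels give the molecule as polyA RNA while the protocol describes ribosomal RNA depletion, and the protocol was followed.

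limma 3.58.1 in R 4.3.3 fitted cosine and sine terms of a 24-h period to log2(scaled count + 1), with a moderated F test and Benjamini-Hochberg adjustment over all 25404 genes and a threshold of 0.05. A 12-h pair, ZT24 against ZT0, and the interaction with regimen over 56 libraries were tested the same way. The animals of a time were the replicates, and which of these group-housed mice shared a cage is not given. Promoters came from RefSeq windows and were searched on both strands. Other steps used Python 3.11.15 with numpy 2.4.6, pandas 2.3.3, scipy 1.17.1 and matplotlib 3.10.9. No column of per-sample values was left unassigned. Members and gene lists were chosen with earlier results of these data known. Named genes were the 19 clock genes, the 10 of smallest p, the 10 called genes of largest amplitude with a mean of at least 5, and in each list the 3 called members of smallest p, with members not called where named. Other list members, among them Noct, Ppara, Fasn, Acly, Srebf1, Hmgcs1, Cyp7a1, Nr0b2, Cps1 and Herpud1, and the 3 heat shock promoters were chosen for their role or motif after their values were seen. Of the listed symbols, 6 were not analysed here, and some members that the rule names are not reported here.

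On simulated data for the NRF rhythm (25404 genes), the test recovered 2 of 50 genes of log2 amplitude 0.125, 26 of 50 at 0.25, 50 of 50 at 0.5 and 48 of 50 at 1, with 5 false calls among 25204 unchanged genes. Far fewer genes cycled in the simulation than the 9791 called in the data, which makes the adjusted threshold stricter. Its noise was drawn separately for each gene and library, without deviations shared by a library. These rates therefore do not give the power or the false calls of the real fit. Alternatives were the deposited values, a pseudocount of 0.1, a mean of at least 1, median-of-ratios scaling, leaving out animals or ZT0 or ZT24, drift, length and replicate terms, times as a factor, and rank and linear-scale tests.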

Additional observations from a re-analysis of the deposited data

Results flagged for a closer look

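The animals printed in the report were compared within each time by the gap of the highest or lowest animal to its nearest neighbour over the range of the 4 animals. Of the groups tested, 129 in all, 13 held an animal past Dixon's 95% limit, and chance gives about 1 in 20 groups. At high levels these were the highest Arntl animal of ZT24, at 81.2 scaled counts, and the highest Abcg8 animal of ZT20, at 16.2. The highest Hyou1 animal of ZT8 read 44.7, the highest Junb animal of ZT8 read 21.9, and the highest Chordc1 animal of ZT20 read 21.0. Animals that stood low were the lowest Cyp2e1 animal of ZT24, at 2562, the lowest Elovl6 animal of ZT20, at 81.6, and the lowest Ppp1r3b animal of ZT8, at 10.4. The lowest Per3 animal of ZT4 read 1.23 and the lowest Ciart animal of ZT4 read 0.0102. In groups that were otherwise at or near 0, the highest Tubb2b animal of ZT12 read 0.440 and the highest Gm47287 animal of ZT12 read 994. The Gm47305 group of ZT16 was near 0 in 1 animal only, the lowest, which read 0.00329.

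The rhythm differed between the feeding regimens (the interaction of the cosine with regimen in limma, 56 libraries) for 7345 of the genes rhythmic under NRF and for 18 of the 19 clock, PAR bZIP and NFIL3 genes.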

How the results depend on the processing

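The count of rhythmic genes stayed within 1.5 times of 9791 under every alternative run. It lay between 7296 without animals number 4 and 11408 with the joined rank and cosine test. That joined test treats p-values from the same libraries as if they were independent. The count with a ratio of at least 1.5 also stayed within 1.5 times of 3241, from 2714 to 3445. The exception was 5636 with a pseudocount of 0.1. A similar count need not mean the same genes. With the values as deposited 2838 genes reached the ratio, and only 908 of them were among the 3241 of the main fit. The share of rhythmic genes that peaked in the dark moved from 44.1% to 61.3% with the values as deposited, 46.8% with a mean of at least 1, 49.3% with median-of-ratios scaling, 45.6% with the drift term and 47.5% with the length index, and leaving out the animals of 1 number gave 43.4 to 47.2%. ZT24 against ZT0 gave 4634 genes with the values as deposited and 1 to 962 without the animals of 1 number. The 12-h component gave 60 genes with the values as deposited and 33 to 60 without the animals of 1 number. The causes were not tested, though leaving out animals leaves fewer samples. The interaction with regimen gave 8024 to 9811 genes. Of 1675 combinations of the 120 named genes with an alternative, 1657 kept their call, 18 calls in 6 genes (Fgg, Fga, Fgb, Rps27l, Rps21 and Rpl38) were lost, and no peak moved by more than 6 h. The largest move of a rhythmic clock gene's peak was 0.936 h. Of 574 counts of rhythmic list members, 48 in 12 lists moved by over 1.5 times.

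Pooled over all numbers, replicate numbers showed little sign of pairing, but number 1 stood apart. Deviations of same-numbered animals at different times correlated at -0.373 to 0.309 (median 0.0119), above 0.1 in 18 of 84 pairs. For number 1 the median was 0.132, against -0.0518 with animals of other numbers. For numbers 2, 3 and 4 the same-number medians were 0.0262, -0.0149 and -0.0266. With the replicate block 9771 genes were rhythmic, 778 differed between ZT0 and ZT24, 165 had a 12-h component and 9811 differed between regimens. For the 2516 rhythmic genes with a mean under 1 scaled count, the added 1 limits the fitted ratio. The limit set by depth was not tested.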

Other observations

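Rhythmic genes of different annotation classes peaked at different times. Of 1650 genes annotated as antisense transcripts, 572 were rhythmic and 13.5% of these peaked in the dark, while 69.8% peaked between ZT4 and ZT10. For protein-coding genes these shares were 47.4% and 36.2% of 7392 rhythmic genes. Of 129 lncRNAs from bidirectional promoters 47 were rhythmic, with 12.8% in the dark, and of 1083 lincRNAs 359 were, with 32.0%. Processed pseudogenes, copies whose reads can be shared with their parent gene, had 449 of 1999 rhythmic and 54.3% in the dark.

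The dark share of the antisense class was below that of protein-coding genes in each setting run, but the gap depended on the setting. It was 20.3% against 67.8% with the values as deposited and 15.2% against 53.1% with median-of-ratios scaling, and it narrowed to 32.4% against 50.3% with the length index and to 35.6% against 46.3% with the drift term. The share of antisense genes that peaked between ZT4 and ZT10 was 46.5% with the length index and 42.1% with the drift term, against 31.1% and 33.6% of protein-coding genes. Whether strand was used in counting is not given in the sources used here, so reads of an antisense gene and its partner may not be separated. The shares are counts over genes that overlap one another, and no test was made.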
